A study of Mus musculus with 12 samples.

Results

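Taar2, Taar3, Taar4, Taar5 and Taar9 encode trace amine-associated receptors. They were picked by their gene symbols, all 5 symbols were found among the 44930 genes of the deposited table, and 16 Taar genes are listed there in all. Levels came from RNA of the olfactory mucosa of 12 male mice at postnatal day 30 on a mixed 129S6;C57BL/6J background. Of these, 6 were wildtype controls and 6 carried the eB deletion, which takes out 1155 bp at chr7:102847692-102848846, an element that the study's title calls an enhancer of class I odorant receptors. No allele or agent beyond these is named in the labels, and its zygosity is not stated in the labels. The question was how these receptor genes on another chromosome stood in animals carrying the deletion, and whether their level followed the class I share, the percentage of all odorant receptor (Olfr) reads that fell on the class I genes Olfr543 to Olfr692.

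Trace amine-associated receptors are G protein-coupled receptors related to the receptors for biogenic amine transmitters. In the nose they are made by small groups of olfactory sensory neurons, each neuron using a single receptor gene, and they detect volatile amines such as those in urine and decaying tissue. Most of these neurons lie in the dorsal zone of the epithelium, as do the neurons that use class I odorant receptors, and they signal through the same cyclic AMP cascade as neurons with odorant receptors.

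In the GENCODE annotation of GRCm38 the 16 Taar genes lie within 189.2 kb of chromosome 10 (chr10:23920356-24109534). Taar2 (chr10:23938572-23941583, plus strand) has 2 exons, the first with 24 annotated bases, and 1020 exonic bases. Taar3 (chr10:23949558-23950589), Taar4 (chr10:23960494-23961537) and Taar5 (chr10:23970706-23971719) follow on the plus strand, and Taar9 (chr10:24108488-24109534) closes the cluster on the minus strand. Each of these 4 is annotated as a single exon of 1032, 1044, 1014 and 1047 bases, and no other annotated gene overlaps any of the 5. None of their 50-base windows (971 in Taar2, 983 in Taar3, 995 in Taar4, 965 in Taar5 and 998 in Taar9) was found in a transcript of another gene. By contrast, 29.5% to 72.5% of the windows of the 9 Taar7 and Taar8 genes were shared with other genes, so that reads of those genes may have been split by the counting, while reads of Taar2, Taar3, Taar4, Taar5 and Taar9 had no such copy.

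The starts of 4 of the 5 genes were matched in the RefSeq tables of GRCm38.p6, each as 250 bases before and 50 bases after the annotated start. They are shown because the genes lie in 1 cluster and tended to be high or low in the same animals, and each annotated start is the start codon, so the window may lie beside the transcription start and not on it. Capitals mark the bases of the first exon, which begin with ATG. The windows lie at chr10:23938322-23938621 (Taar2, plus strand), chr10:23949308-23949607 (Taar3, plus), chr10:23970456-23970755 (Taar5, plus) and chr10:24109485-24109784 (Taar9, minus).
Taar2: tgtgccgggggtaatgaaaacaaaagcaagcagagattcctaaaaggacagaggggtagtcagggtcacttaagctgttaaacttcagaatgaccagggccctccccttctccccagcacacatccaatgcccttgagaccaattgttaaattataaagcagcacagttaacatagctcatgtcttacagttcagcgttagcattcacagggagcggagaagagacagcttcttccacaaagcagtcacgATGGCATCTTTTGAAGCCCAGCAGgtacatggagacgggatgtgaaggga
Taar3: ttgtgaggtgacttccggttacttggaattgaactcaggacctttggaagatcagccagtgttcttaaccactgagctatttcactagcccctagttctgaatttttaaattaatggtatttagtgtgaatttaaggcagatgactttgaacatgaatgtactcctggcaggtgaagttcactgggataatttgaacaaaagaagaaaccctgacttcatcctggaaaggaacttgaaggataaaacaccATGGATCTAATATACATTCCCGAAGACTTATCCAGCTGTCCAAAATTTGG
Taar5: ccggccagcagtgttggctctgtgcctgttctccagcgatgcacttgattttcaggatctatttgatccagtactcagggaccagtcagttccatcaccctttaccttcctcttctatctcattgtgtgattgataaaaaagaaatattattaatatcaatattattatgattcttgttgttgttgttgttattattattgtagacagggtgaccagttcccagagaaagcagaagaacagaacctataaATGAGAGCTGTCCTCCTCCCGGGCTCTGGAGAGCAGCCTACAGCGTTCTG
Taar9: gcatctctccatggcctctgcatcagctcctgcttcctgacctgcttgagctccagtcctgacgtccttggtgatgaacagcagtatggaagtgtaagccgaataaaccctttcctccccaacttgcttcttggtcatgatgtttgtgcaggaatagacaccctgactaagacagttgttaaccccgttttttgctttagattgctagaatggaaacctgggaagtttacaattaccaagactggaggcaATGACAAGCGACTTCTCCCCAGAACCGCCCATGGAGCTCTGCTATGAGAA
In Taar2 the capitals stop after 24 bases, where the intron begins, whereas in the single-exon genes they run to the end of the window. On either strand, the palindromic letters CCCNNGGG, as bound by Ebf factors, were in 0 of the 4 windows, and in 13.4% of all 27025 windows of the table and 3.07% of its 944 Olfr windows. The palindromic letters TAATTA, a homeodomain core as bound by Lhx2, were also in 0 of the 4, and in 5.31% of all windows and 18.6% of Olfr windows. These 2 motifs cannot overlap each other, and a match or its absence describes these letters only.

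Libraries held 13152662 (wildtype 2) to 23059835 reads (eB deletion 3), of which 103840 to 163236 fell on Olfr genes. Of 4 libraries with over 0.1% of reads on the predicted gene Gm10800, the highest was wildtype 2 (11.02%), followed by eB deletion 4 (2.38%), the first deletion animal (0.554%) and wildtype 5 (0.329%). Values below are the deposited normalized counts, that is, reads divided by 1 size factor per library. All 5 genes reached the filter of 10 normalized counts in 12 of 12 libraries. Omp, the defining marker of mature olfactory sensory neurons, stood at 57448 to 69681 normalized counts in wildtype and 57414 to 70076 in eB deletion animals.

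Taar9, whose known ligands in mouse include tertiary amines, was the most abundant of the 5. In wildtype animals its normalized count was 206 at the lowest, 352 at the median and 432 at the highest, and in eB deletion animals 185, 232 and 298. The other 4 wildtype animals lay above every deletion animal, but wildtype 3 and wildtype 6, at 205.6 and 205.7, stood inside the range of the deletion animals, so the groups overlapped, with 1 deletion animal below every wildtype animal. The group means were 321 ± 94.4 (SD, n = 6) and 240.0 ± 43.4 (SD, n = 6), and 6 of 6 deletion animals lay below the wildtype mean. On the log2(value + 1) scale the deletion animals were at −0.38 ± 0.18 (SE; 95% interval −0.76 to −0.0026) relative to wildtype, with an unadjusted limma p of 0.0486 and an adjusted p of 0.878 over all genes, so the difference did not pass.

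Taar5, the receptor for trimethylamine in mouse, was the least abundant, resting on 16 to 54 reads per library. Its normalized counts were 21.3, 35.5 and 50.1 (lowest, median, highest) in wildtype and 15.3, 24.3 and 30.6 in deletion animals. Of the 6 wildtype animals, 5 lay above every deletion animal, while wildtype 6 lay below 5 of the 6, and 1 deletion animal was below every wildtype animal. The means were 37.0 ± 10.8 and 24.4 ± 5.33 (SD, n = 6 each). The difference was the largest of the 5 at −0.56 ± 0.22 on the log2 scale, which is −32.0% with a 95% interval of −50.7% to −6.16%, and its limma p was 0.0218 before and 0.850 after adjustment.

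Taar2 is the only one of the 5 annotated with 2 exons. In wildtype it spanned 97.5 normalized counts (wildtype 3), 249.9 at the median and 278.5 (wildtype 1), and in deletion animals 150.7, 192.5 and 237.8. Each deletion animal lay below the 4 higher wildtype animals and above wildtype 3, while wildtype 6 (156.6) lay among them. Its log2 difference was −0.12 ± 0.21 (95% interval −0.57 to 0.33, limma adjusted p = 0.977). The interval crosses 0, so neither direction was separated from it, and without the 4 libraries with over 0.1% Gm10800 the difference was 0.021.

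Taar4, which in mouse responds to the predator odor β-phenylethylamine, stood at 83.4, 144.5 and 190.3 normalized counts in wildtype and at 116.1, 122.9 and 166.1 in deletion animals. All 6 deletion animals were inside the wildtype range, and 5 of them lay close together with eB deletion 1 above them. Its log2 difference was −0.09 ± 0.17 (95% interval −0.44 to 0.27, limma adjusted p = 0.980), and 0.011 without wildtype 4.

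Taar3, a receptor for isoamylamine in mouse, stood at 33.3, 52.5 and 60.8 normalized counts in wildtype and at 26.9, 44.9 and 60.3 in deletion animals, on 28 to 68 reads per library. The ranges lay over each other, with 2 deletion animals below every wildtype animal. Its log2 difference was −0.18 ± 0.21 (95% interval −0.63 to 0.27, limma adjusted p = 0.961).

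**Figure D1:**
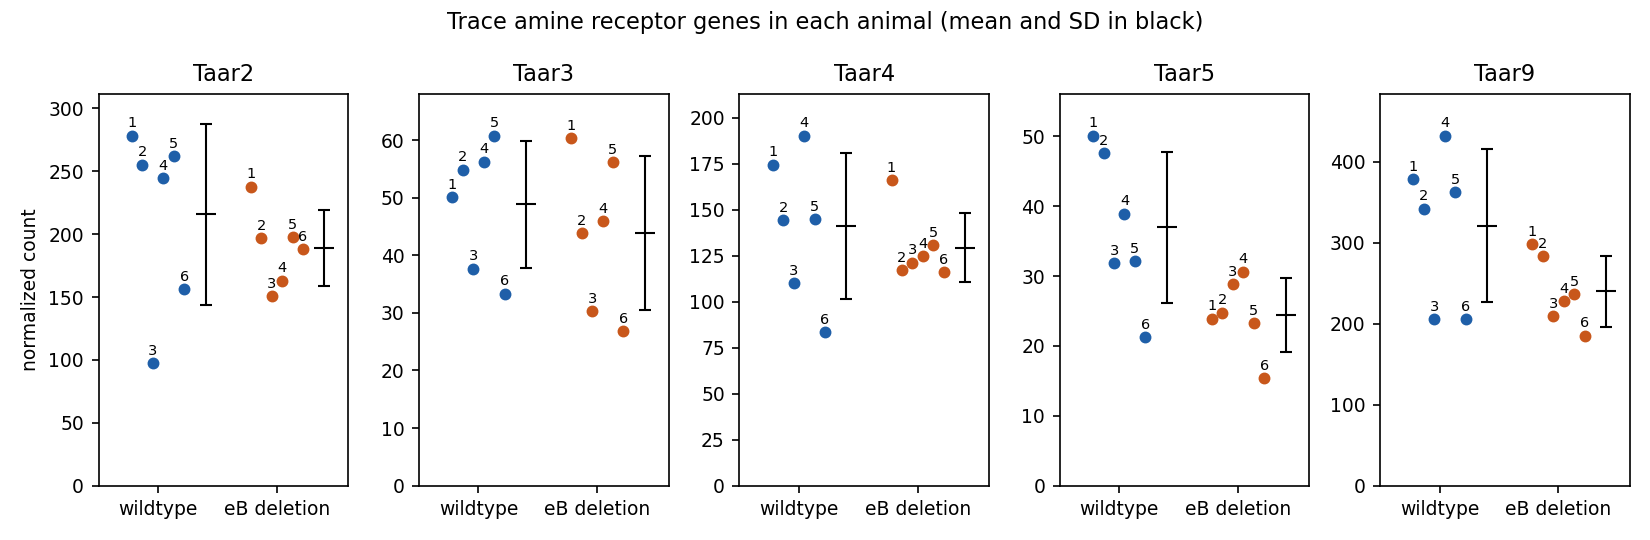
Normalized counts (vertical axis, from 0) of Taar2, Taar3, Taar4, Taar5 and Taar9 in 6 wildtype and 6 eB deletion animals; points are animals with their number, black marks are the mean and SD. Wildtype 3 and 6 sit low in each panel except that wildtype 5 is level with wildtype 3 for Taar5, and the groups overlap in all 5 panels.

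In the limma fit 0 of the 5 genes passed an adjusted p of 0.05, beside 0 of 19100 genes tested (0%), of which 1078 (5.64%) had an unadjusted p under 0.05. Of the 5, 2 had an unadjusted p under 0.05 in the lower direction, where 2.82% of all genes did. All 5 estimates were below 0, as were 48.3% of all genes, and their median was −0.18 against 0.0038 for all genes; the levels of the 5 were positively correlated between animals, so they are not separate counts of a direction, and those of Taar2 and Taar4 turned above 0 under the settings named above. Groups that did not overlap, with deletion lower, were seen in 0 of the 5 genes and 0.157% of all genes. On the recovered reads edgeR called 0 genes (0%) and DESeq2 called 22 (0.115%), none of them among the 5, with no adjusted p given by DESeq2 for Taar5. The authors' deposited table, in which positive values mean higher in wildtype, calls 8 of 20419 genes (0.0392%), none of the 5. It gives log2 values of 0.15 ± 0.07 for Taar5 (adjusted p = 0.972) and 0.17 ± 0.08 for Taar9 (adjusted p = 0.995). DESeq2 on the recovered reads gave −0.59 ± 0.25 and −0.43 ± 0.17 for these genes, deletion minus wildtype. The deposited values are smaller in size than these, so their sizes cannot be set against the limma values. In bulk tissue, fewer neurons that use a receptor and less RNA per neuron cannot be told apart.

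Per kilobase of exon, the order of levels over the 12 animals was Taar9 (268 ± 78.2 normalized counts per kb, SD), Taar2 (198 ± 53.5), Taar4 (130 ± 29.0), Taar3 (44.9 ± 11.6) and Taar5 (30.3 ± 10.3). Within animals, the level per kb of Taar9 was above that of Taar2 in 11 of 12, with a ratio of 1.37 ± 0.28. Taar2 was above Taar4 in 11 of 12 animals at a ratio of 1.54 ± 0.29, and Taar3 above Taar5 in 11 of 12 at 1.58 ± 0.49. Taar4 was above Taar3 in 12 of 12 animals, at 2.97 ± 0.64, and this was the only one of the 4 steps with the same order in every animal. Taar9 made up 42.0% ± 1.67 of the summed normalized count of the 5 genes in the 6 wildtype animals and 38.2% ± 2.57 in the 6 with the deletion (SD), and Taar5 made up 4.94% ± 1.11 and 3.96% ± 1.05.

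The summed normalized count of the 5 genes was 483, 853 and 962 (lowest, median, highest) in wildtype and 531, 618 and 786 in deletion animals. Wildtype 3 (483) and wildtype 6 (500.2) were below every deletion animal, and the other 4 wildtype animals were above every deletion animal. The means were 764 ± 216 and 627 ± 95 (SD, n = 6 each), a difference of −18.0%. The other Taar genes, summed, were also low in wildtype 3 (936) and wildtype 6 (1024) within a wildtype range of 936 to 1747, so that the 5 genes held 36.0% ± 3.05 of all Taar counts in wildtype and 33.9% ± 2.25 in deletion animals. The summed markers of mature neurons stood at 145275 in wildtype 3 and 135554 in wildtype 6, the latter the lowest of all 12, within 135554 to 163191 in wildtype and 141287 to 175642 in deletion animals. Wildtype 6 was also the highest of all 12 animals in the summed markers of horizontal basal cells (1891), progenitors (2371) and respiratory ciliated cells (9408), and wildtype 3 the lowest in those of sustentacular cells (167220). The part of these markers in the low Taar levels was not tested. Relative to 1000 Olfr reads the sum was 5.66 ± 1.22 in wildtype and 4.73 ± 0.505 in deletion animals.

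**Figure D2:**
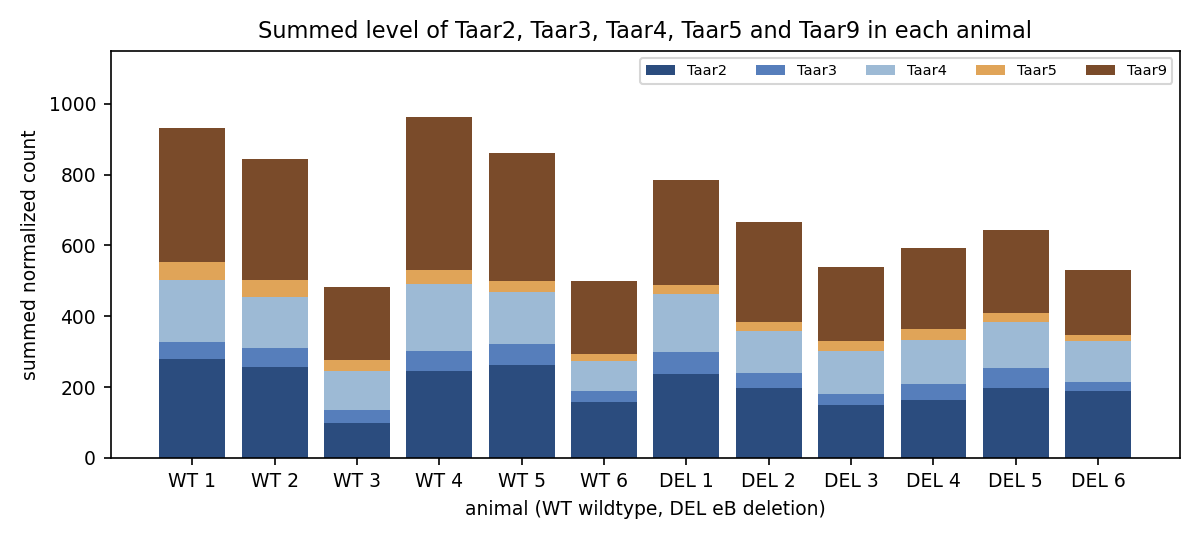
Stacked normalized counts (vertical axis, from 0) of the 5 genes in each animal (WT wildtype, DEL eB deletion), 1 color per gene. Wildtype 3 and 6 are the lowest bars, at 483 and 500.2, and wildtype 4 is the highest at 962.

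The spread between animals was wider than counting error for each of the 5 genes. For Taar9 the coefficient of variation was 29.4% in wildtype and 18.1% in deletion animals, against 5.72% and 6.41% from counting alone. For Taar5, the gene with fewest reads, it was 29.2% and 21.8% against 16.97% and 19.95%, so that in deletion animals its spread was close to what counting gives.

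The 5 genes tended to be high or low in the same animals. Over the 10 pairs of genes, relations chosen after seeing the data, Pearson's r of log2 values across 12 animals ran from 0.36 (Taar2 and Taar5, permutation p = 0.253) to 0.83 (Taar4 and Taar9, p = 0.00073, Spearman's rho 0.91 with p = 9e-05), with a median of 0.711. Of the 10, 8 had a permutation p under 0.05 and 6 an adjusted p under 0.05 over the 35 relations computed, where Taar4 with Taar9 reached 0.0256. Without the 2 animals farthest from the median of the lower-numbered gene of each pair, r ran from 0.304 to 0.855. With values centred on the genotype means it ran from 0.348 to 0.876. Within wildtype alone r ran from 0.585 to 0.943 (exact permutation p from 0.00278 to 0.204) and within deletion animals from −0.397 to 0.805 (exact p from 0.0556 to 0.735), where 9 of the 10 were positive and the exception was Taar2 with Taar5. These values share library and size factor, so the p-values describe these animals only.

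**Figure D3:**
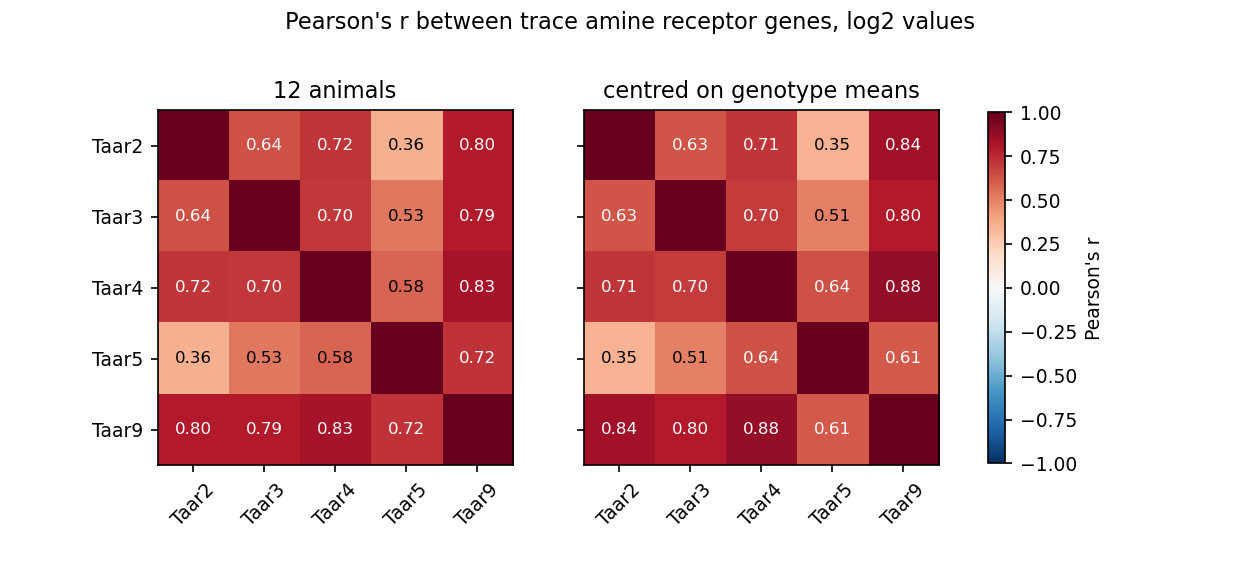
Pearson's r between log2 values of the 5 genes, over 12 animals (left) and after centring on genotype means (right), on a scale from −1 to 1. All 10 pairs are positive in both panels, lowest for Taar2 with Taar5 (0.36 and 0.35) and highest for Taar4 with Taar9 (0.83 and 0.88).

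Among 18022 tested genes that are neither Olfr nor Taar genes, those most like each gene by r over the 12 animals were Cdh18 (0.93), Mtm1 (0.92) and Vsnl1 (0.90) for Taar2, Henmt1 (0.88), Cenpw (0.88) and C9 (0.85) for Taar3, RP23-313D12.4 (0.85), Nhej1 (0.84) and Rdh14 (0.83) for Taar4, Ooep (0.91), RP23-273P3.3 (0.88) and Erich1 (0.87) for Taar5, and Arxes2 (0.89), Mmp8 (0.89) and RP23-180C14.3 (0.88) for Taar9. The Taar gene with the highest r was Taar7e for Taar2 (0.88), Taar7f for Taar3 (0.82), Taar7d for Taar4 (0.86), Taar8c for Taar5 (0.79) and Taar4 for Taar9 (0.83). For Taar4, 0 of the other tested genes had a higher r than this Taar gene, while for Taar5 there were 34. No test was run on these values, which share library and size factor.

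The class I share of the 6 wildtype animals was 9.20% ± 0.337 (SD), and that of the 6 deletion animals 7.89% ± 0.837 (SD). It was lowest in eB deletion 5 (6.50%, Wilson 95% interval 6.37% to 6.63%) and, among deletion animals, highest in eB deletion 1 (9.05%, 8.90% to 9.22%). These intervals cover counting error only.

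Across 12 animals none of the 5 genes had a permutation p under 0.05 for its relation to the class I share. Pearson's r was 0.06 for Taar2 (permutation p = 0.838, rho 0.07 with p = 0.833), 0.09 for Taar3 (p = 0.788, rho 0.12 with p = 0.717), 0.08 for Taar4 (p = 0.799, rho 0.06 with p = 0.869), 0.37 for Taar5 (p = 0.230, rho 0.31 with p = 0.320) and 0.39 for Taar9 (p = 0.219, rho 0.23 with p = 0.471). Adjusted over 35 relations, the p-values of r were 0.333 to 0.863, and without the 2 animals farthest from the median class I share r ran from 0.02 to 0.47. Because the 2 groups differ in the class I share, the values within groups stand beside these: r was negative for all 5 genes within wildtype, from −0.73 to −0.53 (exact permutation p from 0.111 to 0.271), and positive for all 5 within deletion animals, from 0.04 to 0.49 (exact p from 0.332 to 0.972).

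With genotype in the limma fit, the slope of log2 level per percentage point of class I share was −0.04 ± 0.19 (SE) for Taar2, −0.08 ± 0.19 for Taar3, −0.02 ± 0.15 for Taar4, −0.10 ± 0.19 for Taar5 and 0.02 ± 0.16 for Taar9. The estimate was below 0 for 4 of the 5, as for 51.6% of all genes. Adjusted p-values were 0.992 to 0.997, and the fit called 0 of the 19100 genes (0%), 4.64% of which had an unadjusted p under 0.05. For Taar9 the 95% interval of the slope reached from −0.31 to 0.36, so that slopes up to these sizes lay within it, as did 0. In a fit chosen after seeing these values, in which the slope could differ between genotypes, slopes were −0.94 to −0.74 in wildtype and 0.02 to 0.15 in deletion animals. The difference of slopes had an unadjusted p under 0.05 for Taar4 (0.0456) and Taar9 (0.0393), beside 5.83% of all genes, and adjusted p-values of 0.851 to 0.880 for the 5 genes. Wildtype animals covered class I shares of 8.79% to 9.71% only. The 2 with the lowest summed Taar level, wildtype 3 and 6, had shares of 9.29% and 9.71%, while wildtype 4, with the highest summed level, had 9.42%.

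**Figure D4:**
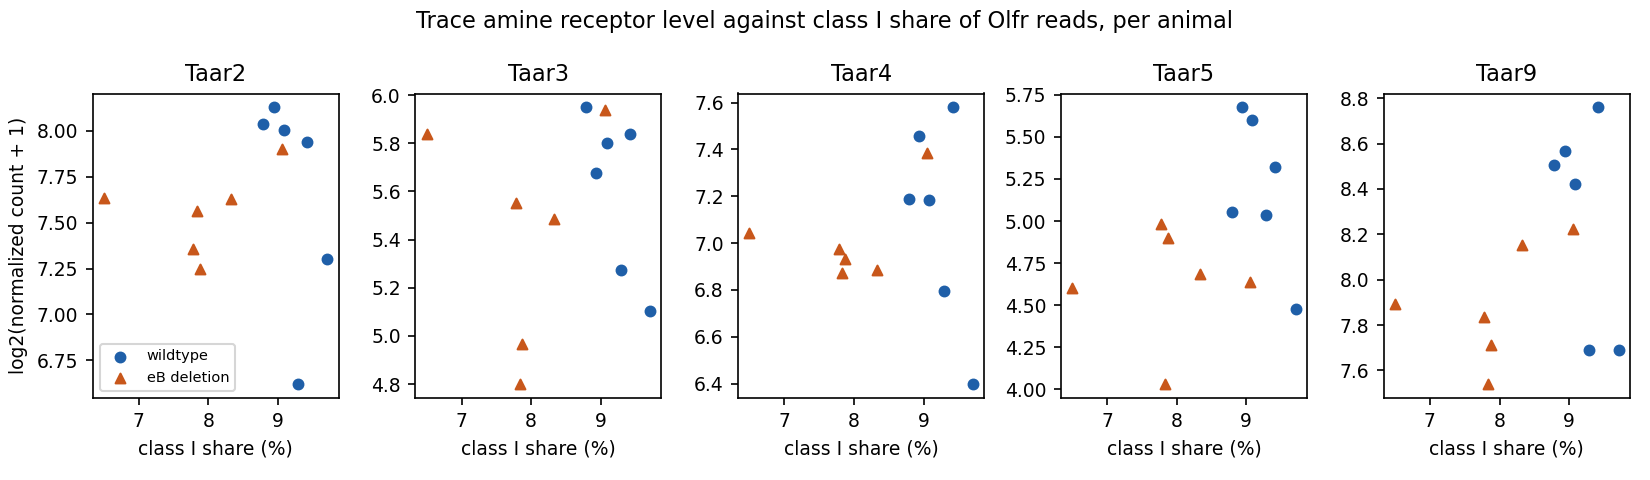
Level of each gene as log2(normalized count + 1) (vertical axes, not from 0) against the class I share of Olfr reads in % (horizontal axes), with circles for 6 wildtype and triangles for 6 eB deletion animals. The 5 values of r over 12 animals lie between 0.06 and 0.39, and r is negative within wildtype and positive within deletion animals for each gene.

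Taar1, which is known from brain and is not used as an odorant-detecting receptor, had 0 reads in 9 libraries, 2 in wildtype 2 and 1 each in eB deletion 1 and 4. The libraries with Taar1 reads had the highest Gm10800 shares and the most genes with a read. Wildtype 2 had 42505, eB deletion 1 33674 and eB deletion 4 39082 such genes, against a median of 29960 over all 12. The part of this in the Taar1 reads was not tested. A count of 0 allows up to 3 reads, or 2.22 to 3.24 normalized counts in those 9 libraries. Of the 7 other Taar genes tested, 6 were lower and 1 higher in deletion animals with a median of −0.23, and 0 passed. Of all 19100 genes, 48.3% were lower and 0 passed. They ranged from −0.71 (Taar8c, limma adjusted p = 0.858) to 0.08 (Taar7a), and Taar8c shares 72.5% of its windows with other genes.

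**Figure D5:**
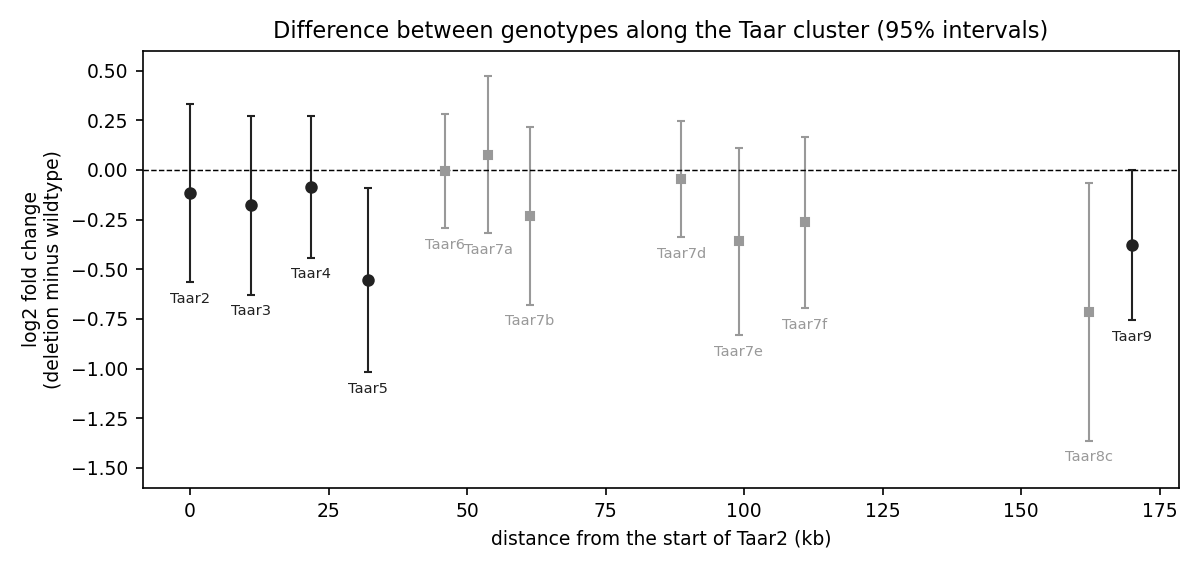
Log2 difference, deletion minus wildtype, with 95% intervals (vertical axis) against the distance of each gene start from Taar2 in kb (horizontal axis), for the 5 genes (black circles) and the 7 other tested Taar genes (grey squares). The intervals of Taar5, Taar9 and Taar8c lie below 0 and all others cross it.

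Beside the cluster, the nearest tested genes that are not receptors showed no call, and neither did any other of the 19100 genes tested. Vnn1, which encodes a pantetheinase and lies 15.0 kb before the cluster, was at −0.19 ± 0.21, Slc18b1 (92.4 kb before) at −0.02 ± 0.07, Stx7 (39.8 kb after), a syntaxin of endosomes, at 0.04 ± 0.05, and Moxd1 (114 kb after) at −0.17 ± 0.07 with a limma adjusted p of 0.850.

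The gene lists set around these receptors held no call, where the fit called 0 of all 19100 genes (0%) and 48.3% of all genes had an estimate below 0. Among genes of the dorsal zone, where Taar neurons mostly lie, Nqo1 was at −0.35 ± 0.14 (limma adjusted p = 0.850), Acsm4 at −0.08 ± 0.09 and Robo2 at 0.03 ± 0.06. The 2 ventral zone genes, Nrp2 and Ncam2, were at 0.15 ± 0.06 (limma adjusted p = 0.850) and 0.03 ± 0.07. Of 12 genes of odor transduction, 0 passed in either direction, 10 estimates were above and 2 below 0, and the median was 0.05, with Gnal, the G protein subunit of these neurons, at 0.06 and Cnga2, a subunit of its channel, at 0.12. Of the 7 mature neuron genes and 10 genes of receptor choice 0 passed, with medians of 0.02 and 0.03. Of the 8 leukocyte markers, 6 were tested and 5 were lower in deletion animals, with a median of −0.20. Their summed level was 925 to 1623 in wildtype and 875 to 1301 in deletion animals, and its part in the Taar values was not tested.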

How the data were processed

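Olfactory mucosa RNA was depleted of ribosomal RNA and made into stranded libraries, per the labels' protocols. STAR 2.6.0, DESeq2 and GRCm38.p6 are named in the submitters' processing notes; for the counting tool, its strand setting and its annotation nothing is stated there or in the labels. The build of the deleted interval was not given and is read as that of the notes.

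The authors' deposited table holds a signal per gene, normalized counts, for 12 animals. In each library 100% of nonzero values were whole multiples of 1 value (tolerance 0.001), from which whole reads were recovered by dividing. The deposited table also gives the authors' own log2 fold change, score (test statistic) and p-value; these are printed only where named. No normalized count was changed, and levels were read as deposited.

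The main test was limma 3.58.1 with trend on log2(value + 1) over the 19100 genes with at least 10 normalized counts in 6 or more libraries, with Benjamini-Hochberg adjustment over all of them. The recovered reads were tested with edgeR 4.0.16 (0 genes called) and DESeq2 1.42.0 (22 genes called) as alternatives. Correlations used 100000 permutations for 12 animals, and exact enumeration for 6 or 8, two-sided. Adjusted p-values of relations cover 35 relations. R 4.3.3, Python 3.11.15 and scipy 1.17.1 were used. The limma fits of the genotype difference and of the class I slope were tried on simulated data, and the other tests were not.

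Depth was 13152662 to 23059835 reads per library. Within each genotype, no 2 libraries were alike within sampling noise, and pairs across genotypes were not checked in this way. The 5 genes, the lists and the tests were chosen with earlier results of these data known. Named genes were the 5, the other Taar genes (Taar1 by name), the 3 genes of highest r to each, up to 4 genes of highest level per list and any past the threshold, and the 2 nearest tested genes on each side of the cluster. The share of class I reads taken by position, the correlations between pairs of the 5 genes, the marker relations and the slopes by genotype were added after seeing the data.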

Additional observations from a re-analysis of the deposited data

Results flagged for a closer look

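Taar4 in eB deletion 1, at a normalized count of 166.1, lay far from the other 5 deletion animals, with a gap to the next of 0.706 of the group's range, above the critical value of Dixon's test at the 95% level for 6 samples. It was the only 1 of 18 groups of animals picked out in this way, and chance picks out about 1 group in 20.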

How the results depend on the processing

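The 5 genes were not called under any of the 23 alternatives to the genotype fit. The number of genes called in all was 0 with limma, 22 with DESeq2, 0 with edgeR, 0 to 1 when 1 animal was left out (1 without wildtype 6) and 1 for the class I slope without a genotype term. Leaving out each animal in turn, log2 differences ran from -0.33 to -0.03 for Taar2, -0.28 to -0.05 for Taar3, -0.23 to 0.011 for Taar4 (above 0 without wildtype 4), -0.70 to -0.43 for Taar5 and -0.50 to -0.28 for Taar9, and the summed level from -23.6% to -13.5%. Without the 4 libraries with over 0.1% Gm10800, the log2 difference of Taar2 was 0.021, the slope of Taar9 -0.091, and r with the class I share -0.12 for Taar2, -0.054 for Taar3 and -0.034 for Taar4. Taar5 was below 0 in 22 of 22 alternatives, with unadjusted p from 0.00353 to 0.064, and Taar9 in 23 of 23, from 0.00561 to 0.162; with a filter of 50 normalized counts Taar5 was not tested.

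Without the genotype term, slopes on the class I share were 0.030 for Taar2, 0.038 for Taar3 and 0.029 for Taar4. They were 0.19 for Taar5 and 0.17 for Taar9. With genotype in the fit and each animal left out, slopes ran from -0.27 to 0.011 for Taar2 and -0.43 to 0.20 for Taar3. Those of Taar4, Taar5 and Taar9 ran from -0.24 to 0.094, -0.27 to 0.0088 and -0.15 to 0.12. Correlations with the class I share were -0.53, -0.73, -0.57, -0.63 and -0.55 within wildtype (Taar2, Taar3, Taar4, Taar5, Taar9), and -0.063, -0.13, -0.033, -0.16 and 0.041 for the same genes with values centred on genotype. Over both genotypes, uncentred, r was 0.06 to 0.39 for the 5 genes. With each animal left out in turn, this r ran from -0.0080 to 0.37 for Taar2 and -0.065 to 0.39 for Taar3. It ran from -0.085 to 0.48 for Taar4, 0.29 to 0.56 for Taar5 and 0.28 to 0.58 for Taar9. The cause of these shifts was not tested.

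Same-numbered animals correlated at -0.12 to 0.16 in their deviations, and only 1 of 6 numbers correlated best with itself. Low correlations cannot exclude a pairing, and whether the replicate numbers pair the animals was not tested. The replicate block lowered the SE of the log2 difference from 0.212 to 0.144 for Taar2 and from 0.213 to 0.144 for Taar3. It also fell from 0.168 to 0.130 for Taar4, 0.219 to 0.181 for Taar5 and 0.178 to 0.112 for Taar9. With the replicate block 0 genes were called, the slope of Taar3 was 0.16, and Taar5 and Taar9 had unadjusted p-values of 0.0103 and 0.00561 (adjusted p = 0.739 for both). Of 401 alternative values, 33 changed sign, 3 counts of genes called moved, and 365 did neither. The 365 include counts of genes called and the summed level, which have no side of a threshold to keep. Depth limits Taar5 and Taar3 most, with 16 to 54 and 28 to 68 reads per library.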

Other observations

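Relations to genes of the zones and of the neurons made up 20 of the 35 relations and, like the 10 between pairs of Taar genes, were chosen after seeing the data. Pearson's r over 12 animals with Ncam2, an adhesion molecule of ventral zone neurons, ran from 0.432 to 0.745 for the 5 genes. Taar4 reached 0.74 (permutation p = 0.00585, adjusted p = 0.0408) and Taar9 0.69 (p = 0.0100, adjusted p = 0.0408). Spearman's rho with Ncam2 was 0.71 for Taar2 (adjusted permutation p = 0.0399) and 0.77 for Taar9 (adjusted p = 0.0316). The r of Taar2 was 0.67 (adjusted permutation p = 0.0667), and the rho of Taar4 was 0.64 (adjusted permutation p = 0.0831). Only Taar9 had an adjusted p under 0.05 with Ncam2 by both measures. With values centred on genotype means, r with Ncam2 ran from 0.606 to 0.867, and 4 of the 5 had a permutation p under 0.05. With Nqo1, an enzyme of dorsal zone neurons, r ran from 0.175 to 0.705, the highest for Taar5 (0.71, permutation p = 0.0105, adjusted p = 0.0408), which was 0.555 (p = 0.0916) with values centred on genotype means. The rho of Taar5 with Nqo1 was 0.73 (adjusted permutation p = 0.0376). With Acsm4, an enzyme of dorsal zone neurons too, r ran from 0.28 to 0.619; for Taar2 r was 0.62 (permutation p = 0.0367, adjusted p = 0.0987) and rho 0.75 (adjusted p = 0.0342), and for Taar9 r was 0.60 (p = 0.0365, adjusted p = 0.0987) and rho 0.71 (adjusted p = 0.0399). With Omp r ran from 0.05 to 0.455. Without the 2 animals farthest from the median of each marker, 1 of the 20 relations had a permutation p of r under 0.05, that of Taar9 with Ncam2 (r 0.71, p = 0.0245). With Acsm4, r was then 0.63 for Taar2 (permutation p = 0.0534) and 0.59 for Taar9 (p = 0.0701), close to the values over 12 animals. For Taar4 with Ncam2 r was 0.38 (permutation p = 0.275), and for Taar5 with Nqo1 0.52 (p = 0.127).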
